A study of Homo sapiens
Mus musculus with 6 samples.

Results

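The genes described here are 39 interferon-stimulated antiviral genes, read in the human transcripts of HT29 xenograft tumours. They were taken by symbol from the table of human genes, which lists 63652 entries, and each symbol kept the entry with the largest summed value. All 39 carried a test. HT29 is an established human colorectal adenocarcinoma cell line, grown here for 4 weeks under the skin of nude mice, which lack a thymus and most T cells and keep B cells, natural killer cells and macrophages. The laminin tumours, 3 in number, overexpressed the mouse laminin alpha 1 chain, and 3 control tumours, also of HT29 cells, did not. The promoter of the transgene is not given in the sources used here, nor whether each line is 1 clone or a pool. Each deposited value stands for a whole group, so no spread between tumours can be given for the levels below. The transgene, which cannot be told apart from the host's own gene, was read as mouse Lama1. It had 1077 ppm of the summed mouse signal (parts in 1000000) in laminin tumours and 4.75 ppm in control tumours, with q = 0.00238 in the authors' deposited table.

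Interferons are secreted proteins that warn cells of viral infection. Type I interferons bind the IFNAR receptor and type III interferons the IFNLR receptor, the second mainly on epithelial cells such as those of the gut. Both receptors act through the kinases JAK1 and TYK2, and a complex that holds STAT2 and IRF9 enters the nucleus and switches on the interferon-stimulated genes. Their products sense foreign RNA, degrade it, block its translation, keep virus particles from entering or leaving the cell, and tune the response itself.

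All 39 genes had a higher level in laminin tumours than in control tumours, and 31 of them rose past the threshold while 0 fell. Of all tested human genes at 1 ppm or more (1 ppm is 1 part in 1000000 of the summed human signal), 46.8% had a ratio above 1. The threshold was a Benjamini-Hochberg adjusted p under 0.05, computed from the authors' deposited p-values over all 25838 tested human genes. Among all tested human genes, 5.63% passed as higher and 2.45% as lower, and among the 15565 tested genes at 1 ppm or more, 7.90% passed as higher. The list thus held 79.5% called higher. The median of the deposited log2 ratios, laminin over control, was 0.81 over the 39 genes and 0.00 over all tested genes, or -0.02 over those at 1 ppm or more. At least a 1.5-fold difference was seen for 30 of the 39 genes, against 9.10% of the genes at 1 ppm or more. At least a 2-fold difference was seen for 18, against 4.07%, and at least a 4-fold difference for 4, against 0.996%. Those 4 were IFITM1, IFI44L, EPSTI1 and XAF1. Together the 39 genes held 3477 ppm of the human signal in laminin tumours and 2105 ppm in control tumours, a 1.65-fold difference. In bulk RNA, more cells that express a gene and more RNA per cell cannot be told apart.

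**Figure D1:**
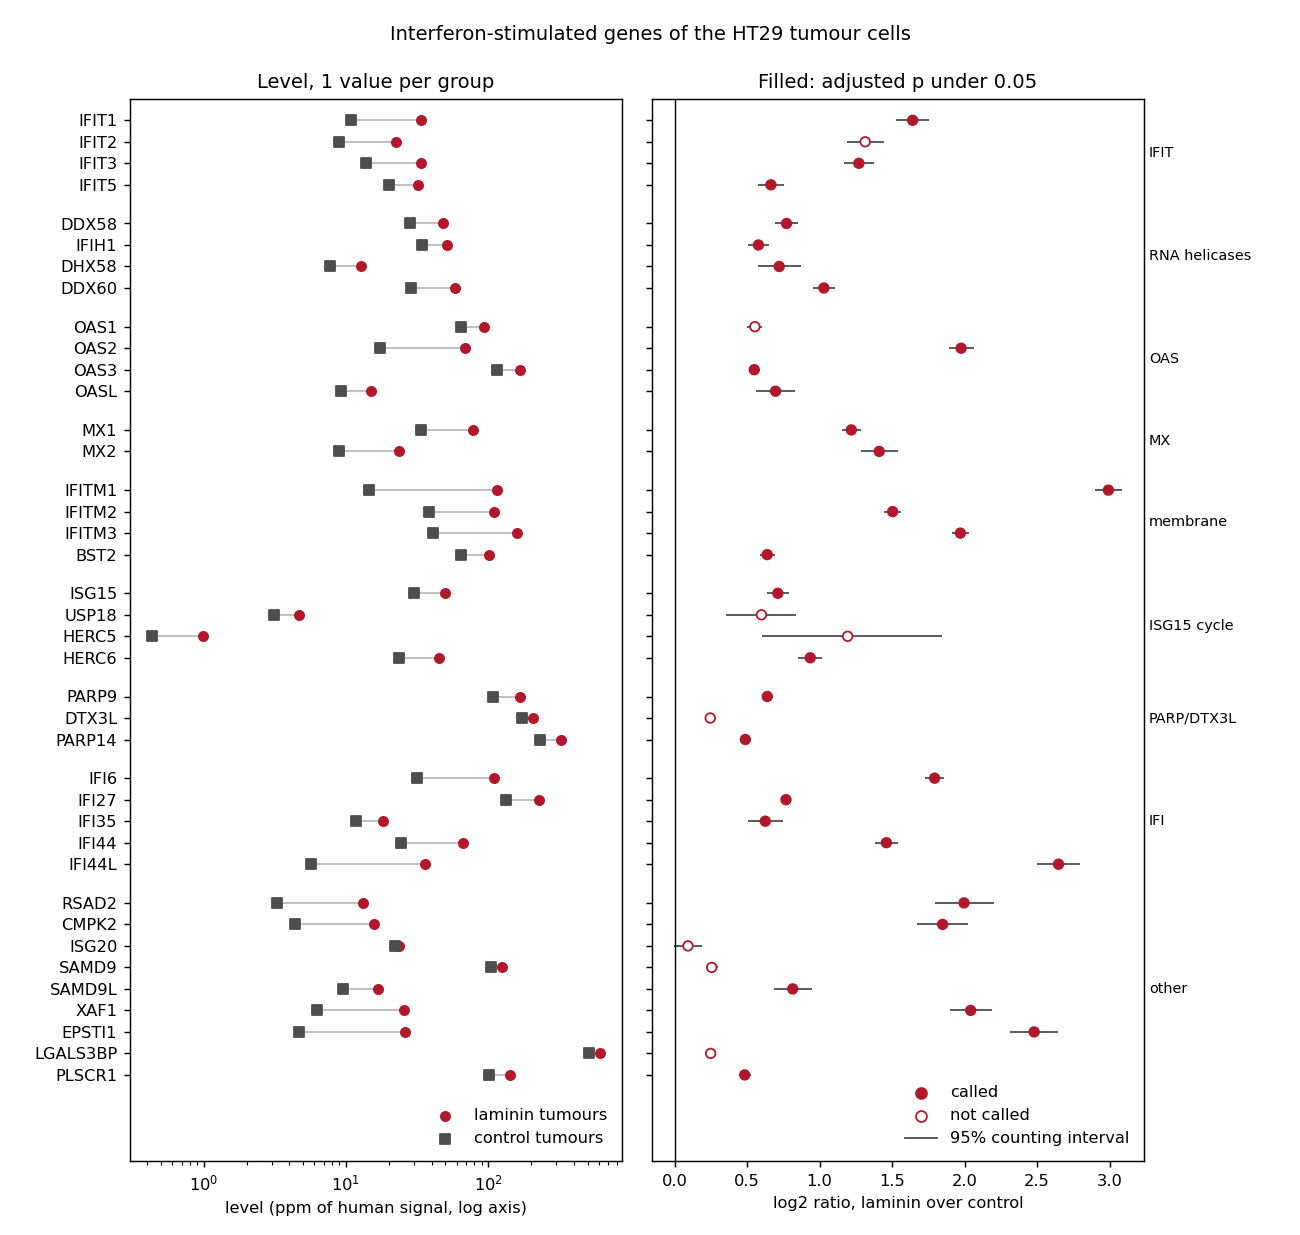
Levels and ratios of the 39 interferon-stimulated genes by role. Left, level in laminin tumours (red circles) and control tumours (grey squares) in ppm of the human signal on a log axis; right, deposited log2 ratio with a 95% counting interval, filled where the adjusted p was under 0.05 (31 genes). Every laminin circle lies right of its control square, from ISG20 at a log2 ratio of 0.09 to IFITM1 at 2.99.

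**Figure D2:**
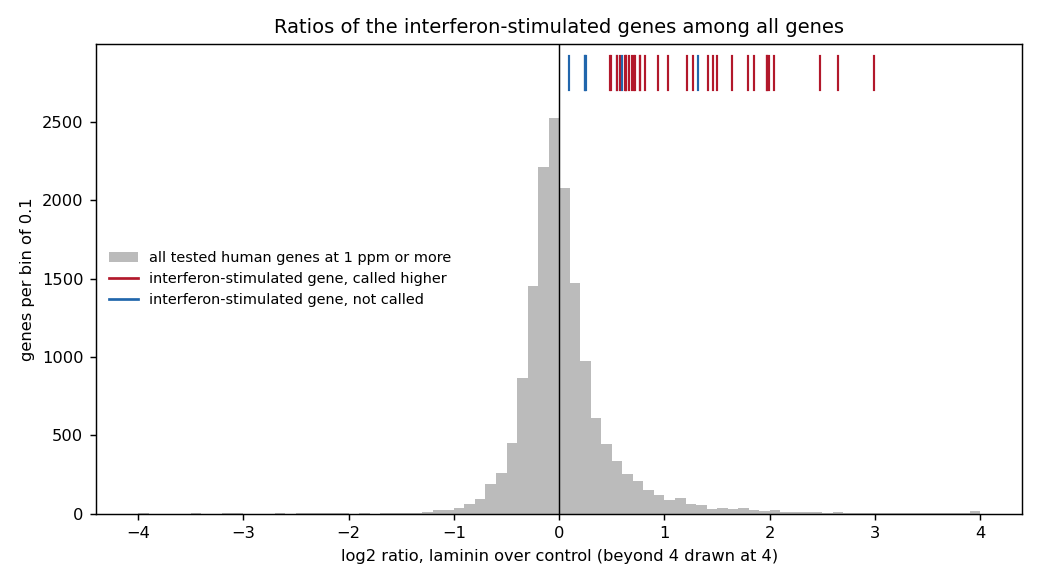
Histogram of the deposited log2 ratio, laminin over control, of the 15565 tested human genes at 1 ppm or more, with the 38 interferon-stimulated genes at that level as ticks above it (red, called higher; blue, not called) and ratios beyond 4 drawn at 4. The histogram centres near 0 (median -0.02), and every tick lies right of 0.

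The values count reads and are not corrected for gene length, so levels are compared between groups and not between genes. The steps in the values of low genes gave the worth of a read, 0.0120 to 0.0129 ppm in laminin tumours and 0.0126 to 0.0137 ppm in control tumours. On that scale the human table rests on about 7.93e+07 reads over the laminin tumours and 7.68e+07 reads over the control tumours. The intervals beside fold differences below are exact 95% binomial (Clopper-Pearson) intervals on the estimated reads. They cover counting error only, not the spread between tumours, which enters through the authors' test alone. No p in the authors' deposited table lies below 5e-05, and 24 of the 39 genes had that value, which becomes an adjusted p of 0.00121. These 24 genes cannot be ranked by p.

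The largest rise among the 39 genes was that of a membrane protein that blocks fusion of enveloped viruses. IFITM1 stood at 115 ppm in laminin tumours and 14.5 ppm in control tumours, 7.95-fold higher (counting interval 7.47 to 8.47, adjusted p = 0.00121 from the authors' test), and 54 of the 15565 genes at 1 ppm or more had a larger ratio. Its paralogue IFITM3, which acts in endosomes, stood at 159.9 ppm in laminin tumours and 40.8 ppm in control tumours, 3.92-fold higher with the same adjusted p. IFITM2 stood at 109 and 38.5 ppm in laminin and control tumours, 2.84-fold higher with the same adjusted p. All 3 IFITM genes rose. Paralogues can share reads, and how alike the 3 sequences are was not compared here, so the split of reads among the genes is uncertain. Their sum, which does not depend on that split, was 384 ppm in laminin tumours and 93.8 ppm in control tumours, 4.10-fold higher (counting interval 3.99 to 4.20). IFITM1 and IFITM2 share a locus in the authors' table (chromosome 11, 307630 to 315272), and IFITM3 lies beside it (318639 to 330122). Human coordinates are printed as that table gives them, and for most of the 39 genes they do not overlap the gene's position in the hg38 build. BST2, the tetherin that holds budding virions at the cell surface, rose less, with 101 ppm in laminin tumours against 64.7 ppm in control tumours, a 1.56-fold difference (adjusted p = 0.00121 from the authors' test).

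The IFIT proteins bind foreign RNA ends and block translation. IFIT1 had 33.7 ppm in laminin tumours and 10.8 ppm in control tumours, 3.12-fold higher (adjusted p = 0.00228 from the authors' test). IFIT3, the partner that stabilises IFIT1, had 33.4 ppm in laminin tumours and 13.9 ppm in control tumours, 2.41-fold higher (adjusted p = 0.00327 from the authors' test). IFIT5 had 31.9 and 20.2 ppm in laminin and control tumours, 1.58-fold higher (adjusted p = 0.00121 from the authors' test). These 3 IFIT genes rose, while IFIT2 did not pass although its ratio lay between those of IFIT1 and IFIT3. IFIT2 was measured at 22.4 ppm in laminin tumours and 9.003 ppm in control tumours, a ratio of 2.49 with p = 0.0074 in the authors' deposited table and an adjusted p of 0.0797. The authors' table puts IFIT1, IFIT2 and IFIT3 into 1 locus of 8 entries (chromosome 10, 90973325 to 91174314), where IFIT5 has a locus of its own (91174342 to 91180758). LIPA, the lysosomal acid lipase gene in the same locus, had 60.2 ppm in laminin tumours and 60.4 ppm in control tumours, with p = 0.982 in the authors' table. IFIT1, IFIT2 and IFIT3 together had 89.5 ppm in laminin tumours and 33.7 ppm in control tumours, 2.66-fold higher (counting interval 2.54 to 2.78).

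The OAS enzymes sense double-stranded RNA and make short oligoadenylates that set off the decay of RNA. OAS2 had the largest ratio of the family, with 68.2 ppm in laminin tumours and 17.3 ppm in control tumours, 3.93-fold higher (counting interval 3.70 to 4.18, adjusted p = 0.00228 from the authors' test). OAS3 rose 1.46-fold, to 168 ppm in laminin tumours against 115 ppm in control tumours (adjusted p = 0.0273 from the authors' test). OASL, a relative without the enzyme activity that aids RNA sensing, rose 1.62-fold, to 14.9 ppm in laminin tumours against 9.20 ppm in control tumours (adjusted p = 0.00121 from the authors' test). OAS1 was measured at 94.1 ppm in laminin tumours and 64.1 ppm in control tumours, a ratio of 1.47 that did not pass (p = 0.0236 in the authors' deposited table, adjusted p = 0.188). The 3 neighbours OAS1, OAS2 and OAS3 lie in 1 locus of the table (chromosome 12, 113344581 to 113455556), and the counting interval of OAS2 lies above those of both others. Whether the ratios differ beyond the spread between tumours was not tested.

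The cytosolic RNA sensors rose together. These are helicases that bind viral RNA and signal for interferon. DDX58, or RIG-I, had 48.3 ppm in laminin tumours and 28.3 ppm in control tumours, 1.71-fold higher. IFIH1, or MDA5, had 51.0 ppm in laminin tumours and 34.1 ppm in control tumours, 1.49-fold higher. DHX58, or LGP2, which has no signalling domain and tunes the other two, had 12.8 ppm in laminin tumours and 7.76 ppm in control tumours, 1.65-fold higher. DDX60, a related helicase, had 58.2 ppm in laminin tumours and 28.5 ppm in control tumours, 2.04-fold higher. Each of the 4 had an adjusted p of 0.00121, and their ratios spanned 1.49 to 2.04.

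The MX proteins are dynamin-like GTPases that trap viral nucleocapsids. MX1 had 78.4 ppm in laminin tumours and 33.7 ppm in control tumours, 2.33-fold higher (counting interval 2.22 to 2.44). MX2 had 23.7 ppm in laminin tumours and 8.92 ppm in control tumours, 2.66-fold higher (counting interval 2.43 to 2.91). Both rose with an adjusted p of 0.00121, and their counting intervals overlap in a narrow range.

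ISG15 is a ubiquitin-like protein that is attached to other proteins by UBA7, UBE2L6 and HERC5 and removed by USP18. ISG15 (chromosome 1, 948802 to 949920) rose 1.64-fold, to 49.4 ppm in laminin tumours against 30.2 ppm in control tumours (adjusted p = 0.00121 from the authors' test). HERC6, the main ISG15 ligase in mice, rose 1.91-fold, to 45.1 ppm in laminin tumours against 23.6 ppm in control tumours (adjusted p = 0.00121 from the authors' test). UBA7 and UBE2L6, the activating and conjugating enzymes, are not among the 39 genes. UBA7 rose 3.08-fold, to 20.8 ppm in laminin tumours against 6.75 ppm in control tumours, and UBE2L6 rose 4.15-fold, to 30.0 ppm in laminin tumours against 7.23 ppm in control tumours (adjusted p = 0.00121 for both from the authors' test). USP18, which also curbs signalling at the IFNAR receptor, did not pass, with 4.71 ppm in laminin tumours and 3.11 ppm in control tumours (p = 0.0067 in the authors' deposited table, adjusted p = 0.0737). HERC5, the human ISG15 ligase, was the lowest gene of the list in reads, about 79 in laminin tumours and 33 in control tumours. Its levels were 0.997 ppm in laminin tumours and 0.436 ppm in control tumours, a ratio of 2.29 (counting interval 1.52 to 3.58) with p = 0.0047 in the authors' deposited table and an adjusted p of 0.0559. The control value of HERC5 splits by the read steps into 3, 14 and 16 reads in the control tumours. The laminin value allows 2 splits, either 24, 25 and 30 or 83, 0 and 0 reads, so whether the groups overlap is not settled, and a step cannot be tied to a labelled tumour.

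PARP9 and DTX3L form a complex of an ADP-ribosyltransferase family protein and a ubiquitin ligase, and their genes share a locus in the authors' table (chromosome 3, 122246770 to 122294050). PARP9 rose 1.56-fold, to 168 ppm in laminin tumours against 108 ppm in control tumours (counting interval 1.52 to 1.60, adjusted p = 0.0169 from the authors' test). DTX3L did not pass, with 205 ppm in laminin tumours and 173 ppm in control tumours, a ratio of 1.19 (counting interval 1.16 to 1.21, adjusted p = 0.555 from the authors' test). PARP14, another ADP-ribosyltransferase close to this locus (122399464 to 122449687), rose 1.40-fold, to 326 ppm in laminin tumours against 233 ppm in control tumours (adjusted p = 0.00228 from the authors' test). The partners in the complex thus differed in their call, and the difference between their ratios was not tested against the spread between tumours.

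The IFI genes were named for their induction by interferon. All 5 rose. IFI44L had 35.7 ppm in laminin tumours and 5.70 ppm in control tumours, 6.27-fold higher, and its neighbour IFI44 had 66.5 ppm in laminin tumours and 24.2 ppm in control tumours, 2.75-fold higher. IFI6, a small membrane protein that limits flavivirus replication, had 109 ppm in laminin tumours and 31.6 ppm in control tumours, 3.47-fold higher. IFI27 had 227 ppm in laminin tumours and 133 ppm in control tumours, 1.70-fold higher. The adjusted p was 0.00121 for these 4 genes. IFI35, the partner of NMI, had 18.1 ppm in laminin tumours and 11.7 ppm in control tumours, 1.54-fold higher (adjusted p = 0.00327 from the authors' test), while NMI had 46.4 and 44.0 ppm in laminin and control tumours and did not pass (adjusted p = 0.951).

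Of the other 9 effectors, 6 rose. EPSTI1, named for epithelial-stromal interaction in breast cancer, had 26.1 ppm in laminin tumours and 4.69 ppm in control tumours, 5.58-fold higher. XAF1, an antagonist of the cell death inhibitor XIAP, had 25.6 ppm in laminin tumours and 6.23 ppm in control tumours, 4.12-fold higher. RSAD2, or viperin, makes a nucleotide that ends viral RNA chains, and had 13.1 ppm in laminin tumours and 3.28 ppm in control tumours, 3.99-fold higher. The kinase gene CMPK2, its neighbour in the same locus (chromosome 2, 6980700 to 7038370), had 15.8 ppm in laminin tumours and 4.38 ppm in control tumours, 3.60-fold higher. The counting intervals of this pair, 3.47 to 4.60 for RSAD2 and 3.19 to 4.07 for CMPK2, overlap. SAMD9L rose 1.76-fold, to 16.7 ppm in laminin tumours against 9.49 ppm in control tumours, and the scramblase PLSCR1 rose 1.40-fold, to 141 ppm in laminin tumours against 101 ppm in control tumours. All 6 had an adjusted p of 0.00121.

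The 3 effectors that did not pass were those with the smallest ratios of the group. ISG20, an exonuclease that degrades single-stranded RNA, had 23.5 ppm in laminin tumours and 22.1 ppm in control tumours, a ratio of 1.07 (counting interval 0.998 to 1.14, adjusted p = 0.938 from the authors' test), the lowest of the 39 genes. SAMD9, the paralogue of SAMD9L, had 125 ppm in laminin tumours and 104 ppm in control tumours, a ratio of 1.19 (p = 0.0423 in the authors' deposited table, adjusted p = 0.278). LGALS3BP, a secreted glycoprotein that binds galectins, had 609 ppm in laminin tumours and 512 ppm in control tumours, a ratio of 1.19 (p = 0.0483 in the authors' deposited table, adjusted p = 0.302). Of the 8 genes short of the threshold, 6 had an unadjusted p under 0.05, so 37 of the 39 did in all, each with a ratio above 1. Over all tested human genes, 10.1% had such a p with a ratio above 1 and 6.07% with a ratio below 1. The exceptions among the 39 were ISG20 and DTX3L.

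Of the 21 genes alone in a locus of the authors' table, 17 rose, and of the 18 that share a locus with any other entry 14 rose. Among the latter, 12 share it with another of the 39 genes, and 9 of these rose. OAS1 and IFIH1 had close ratios, 1.47 and 1.49, and different calls. OAS1, in a shared locus with about 7473 reads in laminin tumours, had p = 0.0236 according to the authors' deposited table. IFIH1, alone in its locus with about 4049 reads in laminin tumours, had p = 5e-05 according to the authors' deposited table. Other genes go the other way: OAS3, in the locus of OAS1, passed at a ratio of 1.46, and USP18, alone in its locus, did not pass at 1.51. The part of a shared locus in the calls was not tested. The library protocol describes no step that keeps the strand, so antisense reads cannot be separated. The antisense or overlapping entries RP11-288L9.4 at IFI6 and AP001610.5 at MX1 were small, with 0.381 and 0.210 ppm in laminin tumours and 0.0274 and 0.0329 ppm in control tumours.

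Around the 39 genes, 98 other genes of the pathway were looked up, and 20 of the 78 tested rose while 0 fell. Those that rose were 25.6% of the tested, against 5.63% higher and 2.45% lower among all tested human genes. At an unadjusted p under 0.05 in the authors' deposited table, 27 were higher and 0 lower, against 10.1% and 6.07% of all tested human genes. The interferon genes other than IFNE were at a few reads or at 0 in the tumour cells. Of 21 interferon genes 12 were listed at 0 in both groups, which by counting error allows up to 0.0378 ppm in laminin tumours and 0.0391 ppm in control tumours (3 reads), and IFNG was among them. Of the 5 tested ligands 0 passed, and 0 had an unadjusted p under 0.05 in the authors' deposited table. In so short a list 0 is near the shares of all tested human genes. Their ratios were above 1 for 2 and below 1 for 3, with a median deposited log2 ratio of -0.03. IFNB1 had 1, 3 and 2 reads in the laminin tumours and 0, 2 and 1 reads in the control tumours. IFNA1 went the other way, a ratio of 0.536, with 0, 1 and 4 reads in the laminin tumours and 0, 3 and 6 in the control tumours. The type III gene IFNL1 had 3, 4 and 4 reads in the laminin tumours and 0, 0 and 2 reads in the control tumours. The IFNL1 ratio of 5.08 rests on about 11 reads in laminin tumours and 2 in control tumours, with a counting interval of 1.16 to 49.3. The authors' deposited table gives it p = 0.254, which becomes an adjusted p of 0.700. How many genes with so few reads separate the groups in this way was not counted. IFNE, an interferon that epithelia make without infection, was the only ligand above 1 ppm, with 8.71 ppm in laminin tumours and 9.67 ppm in control tumours (adjusted p = 0.898 from the authors' test), in a locus that also holds MIR31HG.

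Of 9 receptor and kinase genes 0 passed, and 0 had an unadjusted p under 0.05 in the authors' deposited table. Over all tested human genes 5.63% passed as higher and 2.45% as lower, so 0 in so short a list is near those shares. At an unadjusted p under 0.05 the shares were 10.1% and 6.07%. The 9 ratios ran from 0.872 for IFNLR1 to 1.14 for IFNAR2. IFNAR1 had 52.2 ppm in laminin tumours and 49.9 ppm in control tumours, and JAK1 had 142 ppm in laminin tumours and 140 ppm in control tumours. STAT2 and IRF9, of the transcription complex, had ratios above 1 but did not pass. STAT2 was at 65.6 and 54.7 ppm in laminin and control tumours (adjusted p = 0.324 from the authors' test). IRF9 was at 47.6 and 32.4 ppm in laminin and control tumours (p = 0.024 in the authors' deposited table, adjusted p = 0.190). The 7 negative regulators looked up were SOCS1, SOCS3, PTPN2, PTPN6, PTPN11, PIAS1 and PIAS4. Of these 0 passed, and 0 had an unadjusted p under 0.05 in the authors' deposited table, again near the shares of all tested human genes. SOCS3 had 3.45 ppm in laminin tumours and 3.41 ppm in control tumours.

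Of 15 sensing and signalling genes outside the list 4 rose (26.7%) and 0 fell, against 5.63% higher and 2.45% lower among all tested human genes. TLR3, the endosomal receptor for double-stranded RNA, had 10.2 ppm in laminin tumours and 4.52 ppm in control tumours, 2.26-fold higher. TMEM173, or STING, the adaptor of DNA sensing, had 15.3 ppm in laminin tumours and 6.92 ppm in control tumours, 2.22-fold higher. IRF7, the factor that amplifies interferon transcription, had 45.5 ppm in laminin tumours and 30.0 ppm in control tumours, 1.52-fold higher. ZBP1, a sensor of Z-form nucleic acid, had 1.05 ppm in laminin tumours and 0.271 ppm in control tumours, 3.88-fold higher. The adjusted p was 0.00121 for all 4. The RIG-I adaptor MAVS had 60.4 and 51.2 ppm in laminin and control tumours and did not pass (adjusted p = 0.397 from the authors' test), nor did the double-stranded RNA kinase EIF2AK2, with 208 and 189.5 ppm (adjusted p = 0.748), or the RNA-editing enzyme ADAR, with 364 and 315 ppm (adjusted p = 0.440).

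Of 30 further interferon-induced genes, 29 were tested, with a median deposited log2 ratio of 0.37. Of the 29, 12 rose (41.4%) and 0 fell, against 5.63% higher and 2.45% lower among all tested human genes. Beside UBA7, UBE2L6 and the DNA sensor IFI16 (12.2 ppm in laminin tumours, 0.580 ppm in control tumours) the 12 were RTP4, SLFN5, LY6E, PHF11, C19orf66, HELZ2, PML, SHISA5 and PARP12. RTP4 had the largest ratio after IFI16, 5.74, with 4.65 ppm in laminin tumours and 0.810 ppm in control tumours. Of 13 genes known for a strong response to interferon gamma, 10 of them tested, 4 rose and 0 fell. GBP4 had 2.95 ppm in laminin tumours and 0.413 ppm in control tumours, the guanylate-binding protein GBP1 had 10.9 ppm in laminin tumours and 3.26 ppm in control tumours, and ICAM1 and the factor IRF1 were 2.39-fold and 1.37-fold higher. Other genes of this kind did not pass, since WARS had 68.9 and 67.4 ppm in laminin and control tumours, the chemokine gene CXCL11 had 1.72 and 0.894 ppm (adjusted p = 0.0898 from the authors' test), and IDO1 was listed at 0 in both groups.

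**Figure D3:**
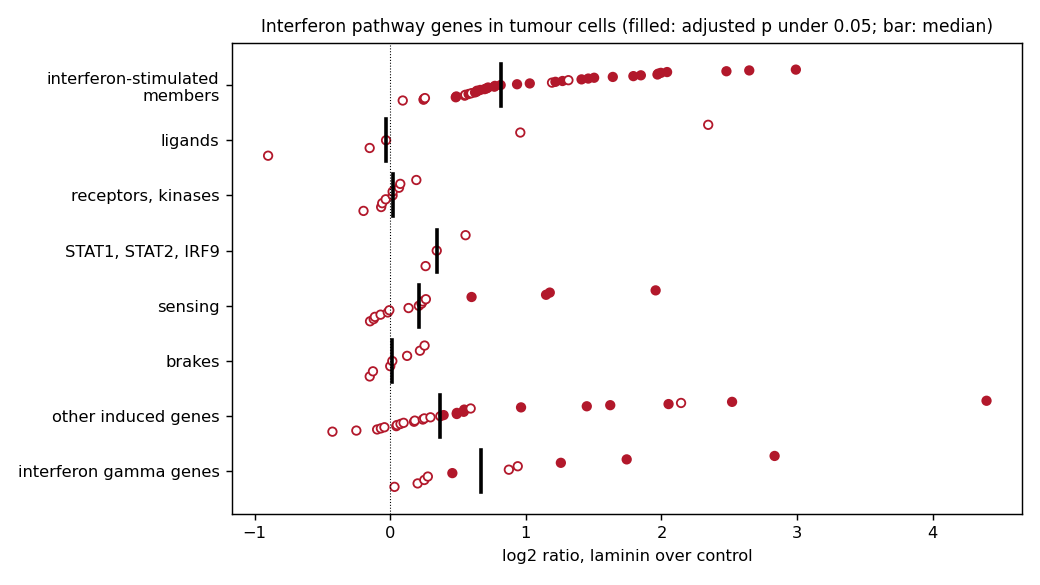
Deposited log2 ratios, laminin over control, of the tested human genes of the interferon pathway, 1 point per gene, filled where the adjusted p was under 0.05, with the median of each list as a bar. The 39 members lie at a median of 0.81, the 9 receptor and kinase genes at 0.02 and the 7 negative regulators (brakes) at 0.02.

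Host genes of the same families were looked up beside the human ones. Host RNA was read in a separate mouse table, with 1 value per group on its own scale, so levels are not compared between species. Of 37 mouse orthologues looked up by symbol 34 had an entry, and 5 rose and 0 fell at a q-value under 0.05 in the authors' deposited table, where 0.579% of 14339 tested mouse genes were higher and 2.96% lower. At an unadjusted p under 0.05 in that table, 10 of the 34 were higher and 0 lower, against 2.96% and 7.18% of all tested mouse genes. The median deposited log2 ratio of these 34 was 0.41, against -0.03 over all tested mouse genes. The 5 were Ifit1 (chromosome 19, 34640888 to 34650009 in mm10), Ifit2, Isg15, Rsad2 and Oasl1. Ifit1 had 71.0 ppm of the mouse signal in laminin tumours and 29.0 ppm in control tumours, with q = 0.00441 in the authors' deposited table. Rsad2 had 64.7 ppm in laminin tumours and 27.9 ppm in control tumours, with q = 0.0118 there, and Isg15 had 52.4 ppm in laminin tumours and 23.1 ppm in control tumours, with q = 0.0211 there.

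Several of the families with the largest human ratios had host ratios near 1. Host Ifitm3 had 381 ppm in laminin tumours and 319 ppm in control tumours, a ratio of 1.19 with q = 0.937 in the authors' deposited table, beside 3.92 for human IFITM3. Host Epsti1 had 31.4 ppm in laminin tumours and 30.0 ppm in control tumours, a ratio of 1.04 beside 5.58 for the human gene. Host Xaf1 had 69.8 ppm in laminin tumours and 72.0 ppm in control tumours, a ratio of 0.968 beside 4.12, and host Oas2 a ratio of 1.04 beside 3.93. These differences between tumour cells and host were not tested, and the mouse table rests on fewer data, about 5.66e+06 reads over the laminin tumours and 6.60e+06 reads over the control tumours. Within the mouse laminin group the largest read step was 2.47 times the smallest, so the host values of that group rest unevenly on its tumours. Its read numbers, taken with the mean step, are therefore rough, and too low if its tumours add equal signal.

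**Figure D4:**
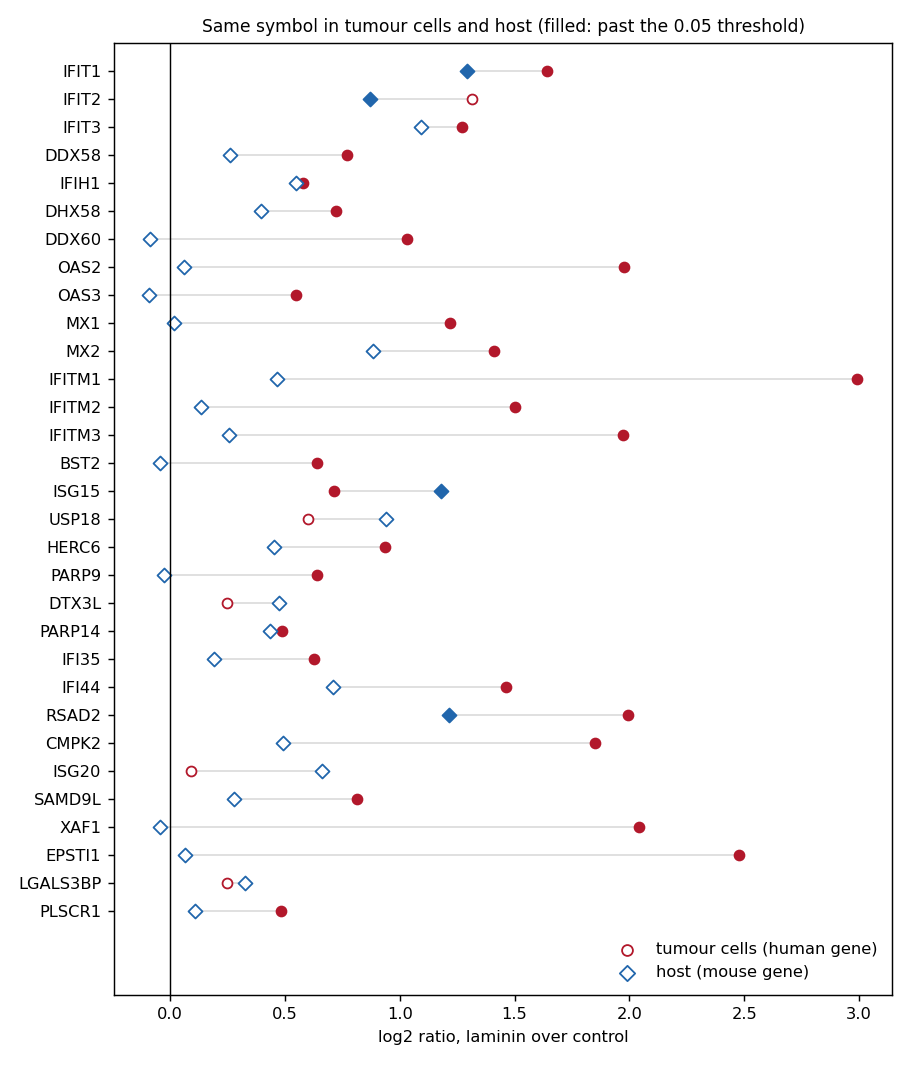
Deposited log2 ratio, laminin over control, of 31 genes with the same symbol in tumour cells (red circles) and host (blue diamonds), filled where past the 0.05 threshold. IFITM1, EPSTI1, OAS2 and XAF1 lie far right of their host diamonds, and ISG15, USP18, DTX3L, ISG20 and LGALS3BP lie left of theirs.

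The cells read in the human table carried epithelial markers. EPCAM had 1033 ppm in laminin tumours and 1041 ppm in control tumours, KRT20 had 850 and 801 ppm in laminin and control tumours, and neither passed. Of the 8 epithelial markers 1 rose, the intestinal factor CDX2, with 67.8 ppm in laminin tumours and 19.6 ppm in control tumours. The ratio was above 1 for 3 markers and below 1 for 5. By adjusted p, 5.63% of all tested human genes were higher and 2.45% lower. At an unadjusted p under 0.05 in the authors' deposited table, 1 was higher and 1 lower, against 10.1% and 6.07% of all tested human genes. The lower was CEACAM5, with 919 ppm in laminin tumours and 1287 ppm in control tumours (adjusted p = 0.0874 from the authors' test). Of 13 markers of human immune or stromal cells, which a graft of a cell line should lack, 6 were tested. Of the 6, 3 rose and 0 fell, against 5.63% higher and 2.45% lower among all tested human genes. The summed level of the 13 was 49.4 ppm in laminin tumours and 21.7 ppm in control tumours. CD68, a lysosomal gene not confined to macrophages, made up 41.4 ppm of it in laminin tumours and 18.9 ppm in control tumours. The 3 that rose were ITGAM, CD14 and COL1A1, each under 4 ppm. The pan-leukocyte gene PTPRC had 0.0625 ppm in laminin tumours and was listed at 0 in control tumours, CD3E had 0.0386 ppm in laminin tumours and was listed at 0 in control tumours, and PECAM1 was listed at 0 in both. In the host, 0 of 9 immune and stromal markers rose (also 0 at an unadjusted p under 0.05) and 1 fell. Of all tested mouse genes 0.579% were higher and 2.96% lower by q-value, so 0 of 9 higher is near that share. At an unadjusted p under 0.05 the shares were 2.96% and 7.18%. The ratio was above 1 for 4 host markers, among them Ptprc at 1.31 and Csf1r at 1.27, and below 1 for 5. The monocyte gene Cd14 fell, with 56.6 ppm of the mouse signal in laminin tumours and 102 ppm in control tumours (q = 0.0353 in the authors' deposited table). The part of these markers in the interferon-stimulated genes was not tested. Collagen genes that are abundant in the host had few reads in the human table: COL1A1 in the human table had 0.199% of the reads of host Col1a1 in laminin tumours and 0.0455% in control tumours, and COL3A1 had 0.00552% and 0.00317% of those of Col3a1. IFIT1 in the human table had about 2674 reads in laminin tumours and 828 in control tumours, against about 405 and 189 for host Ifit1, and RSAD2 had about 1041 and 252, against about 370 and 182 for host Rsad2.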

How the data were processed

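Total RNA of 3 laminin and 3 control tumours was made into oligo-dT selected Illumina libraries, per the labels' protocols. The submitters' processing notes name TopHat2, Cufflinks, hg38 and mm10, without roles. The loci of all 39 genes lie on the RefSeq GRCh38.p14 (hg38) chromosome, but only 4 overlap their position there. For most of the 39 genes the printed human coordinates, given as deposited, are thus not hg38 positions. Which other build they follow was not tested. The authors deposited 1 signal value per gene and group, a log2 ratio and a p-value, per the file headers. The mouse table has a q-value as well, also deposited, and its copies were used once. How the species were separated is not given in the sources used here.

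Signal was divided by the mean summed signal of both groups and given in ppm. Human p-values were Benjamini-Hochberg adjusted over all tested genes with a script checked on simulated data (Python 3.11.15, pandas 2.3.3, scipy 1.17.1). Reads were estimated by dividing a value by the mean read step of its group, which is rough for host values in laminin tumours, where the steps differ most. Steps were fitted to values of low genes. Of human values of 1 to 25 reads, 64.0% in laminin tumours and 64.6% in control tumours had a single split. When shifted off the steps, 0.2% and 0% did. SOCS1, at about 16 reads in laminin tumours, had 0 splits that fit. Of values of 25 to 40 reads, 54.4% in laminin tumours and 60.2% in control tumours had a single split, against 3.60% in laminin tumours and 2.00% in control tumours when shifted off the steps; at 60 to 90 reads in laminin tumours the shares were 65.0% and 45.0%, so splits above 60 reads are not settled. The 3 tumours of a group are called independent by the series' text; p-values measure only the spread that the authors' test saw.

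The 39 genes and the lists of pathway genes, markers and orthologues were chosen with earlier results of these data known. All 39 are named, as are called genes of the other lists. LIPA, NMI, TRIM5, TRIM22, CEACAM5, the interferon genes and the host genes that did not pass were chosen after their values were seen.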

Additional observations from a re-analysis of the deposited data

How the results depend on the processing

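The 31 genes called higher remained the same genes when p-values were adjusted over genes at 1 or 5 ppm or more, and 29 of them, without OAS3 and PARP9, remained at an adjusted p under 0.01. Requiring at least a 1.5-fold difference left 27, and at least a 2-fold difference left 16. A Bonferroni adjustment over all tested genes left 0, because the smallest deposited p, 5e-05, cannot reach the threshold over 25838 genes; 37 of the 39 genes had an unadjusted p under 0.05. The median log2 ratio stayed between 0.68, with 5 ppm added to both levels, and 0.84, centred on the median gene at 1 ppm or more. Of 98 pathway genes, 20 were higher; 13 remained with at least a 1.5-fold difference and 11 with at least a 2-fold difference. Of the 5 host orthologues, 1 remained at a q-value under 0.01. The settings on thresholds and adjustment change no ratio, and directions of single genes were not recomputed under the others.

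Leaving out a tumour could not be done, since the values are per group. No paired analysis was possible because the tables hold 1 value per group and the labels give no shared replicate numbers. The planned searches of promoters and comparison of paralogue proteins were not run. Depth limits the interferon genes and HERC5, which rest on at most 79 reads a group, IFNE excepted.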

Other observations

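Values of other low genes of the pathway were split into reads per tumour by the read steps, with no link from a step to a labelled tumour. The chemokine gene CXCL10 had 28, 10 and 21 reads in the laminin tumours and 14, 9 and 8 reads in the control tumours, and the groups overlap. The laminin split of CXCL10 is less sure. At 40 to 60 reads in laminin tumours 62.4% of values had a single split, against 16.4% when shifted off the steps. ZBP1 had 12, 4 and 5 reads in the control tumours, and its laminin value of about 84 reads is too high for a settled split. GBP5, a guanylate-binding protein gene that was not tested, had 6, 0 and 6 reads in the laminin tumours and 2, 5 and 1 reads in the control tumours, so 1 laminin tumour had none. IFNL2 had 1, 0 and 3 reads in the laminin tumours and 1, 2 and 1 reads in the control tumours.

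TRIM22, an interferon-induced ubiquitin ligase, had 3.76 ppm in laminin tumours and 0.851 ppm in control tumours. This ratio of 4.42 (counting interval 3.39 to 5.90) had p = 0.0583 as the authors' deposited table gives it. It lies in the same locus as its paralogue TRIM5, which had 35.5 ppm in laminin tumours and 37.9 ppm in control tumours. CXCL9 was listed at 0 in laminin tumours and at 0.142 ppm in control tumours, and was not tested.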
